A study of Mus musculus with 2 samples.

Results

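Adipocyte nuclei were a small population of the mouse heart in this single-nucleus RNA-seq data set, and they were chosen by measured RNA. A nucleus was counted as an adipocyte nucleus if at least 3 of its UMIs (unique molecular identifiers, each standing for 1 counted RNA molecule) came from Adipoq, Plin1, Cidec, Cidea, Ucp1 and Adrb3 together, if that sum was larger than the sums of 3 endothelial genes (Pecam1, Flt1, Ptprb) and of 4 fibroblast genes (Pdgfra, Col1a1, Col3a1, Dcn), and if mitochondrial transcripts made up at most 20% of its UMIs. The rule selected 173 of 18164 nuclei in the 2 libraries, with 157 members among the 10197 control nuclei and 16 among the 7967 of the other library, made from PD-1 inhibitor hearts. The levels of these 13 genes are therefore a description of how the nuclei were chosen and not a finding.

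The study asked what PD-1 inhibition does to cells of the heart. Hearts came from male C57BL/6 mice bought at 8 weeks of age and kept at 23 °C. The PD-1 inhibitor group received an anti-mouse PD-1 antibody by intraperitoneal injection at 5 mg/kg on days 1 and 14 of a cycle of 28 days, and the Control group received PBS at the same times. Each group was 1 library, and the number of hearts in a library was not given in the sources used here, so group and library cannot be told apart and no comparison below carries a p-value. Intervals are 95% intervals for counting error alone (exact Poisson for UMI sums, Clopper-Pearson for shares, exact conditional for ratios). Levels are CPM, the UMIs of a gene per 1000000 UMIs of the nuclei named.

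Brown adipocytes burn fatty acids and glucose to make heat. Noradrenaline acts on the beta-3 adrenergic receptor (Adrb3), cyclic AMP rises, lipolysis frees fatty acids, and these activate and fuel Ucp1, a carrier of the inner mitochondrial membrane that lets protons back in without making ATP. White adipocytes store triglyceride and secrete adipokines such as adiponectin (Adipoq), resistin (Retn) and adipsin (Cfd), and carry little or no Ucp1. Brown fat surrounds the large vessels near the mouse heart.

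The control library gave most of the members, at 1.55% of its 10114 nuclei under the mitochondrial limit (1.32 to 1.81%). Of 171 control nuclei with an adipocyte sum of 3 or more, 7 were lost to the endothelial sum and 9 to the fibroblast sum (14 in all), and 0 to the mitochondrial limit. The adipocyte sum ran from 3 to 77, with a median of 14. Just inside the threshold, 22 control nuclei had a sum of 3 with a median of 837 UMIs in all, and just outside it 25 nuclei that met the other criteria had a sum of 2 with a median of 828 UMIs. Cidea gave the most UMIs of the 6 genes in the nuclei at 2 (13 UMIs), and Plin1 in those at 3 (16 UMIs). The 157 members were deeper than the other control nuclei, with a median of 1964 UMIs and 1140 genes against 1012 UMIs and 648 genes, and held fewer mitochondrial transcripts, a median of 0.282% against 0.861% of UMIs. The threshold counts UMIs, so deeper nuclei reach it more easily. When every nucleus was first drawn down to 500 UMIs, 107 control nuclei met the rule. The libraries shared 48 cell barcodes, and 0 of them belonged to a member. Scrublet called 8 of the 157 control members and 0 of the 16 PD-1 inhibitor members doublets, and they were kept. Unsupervised Leiden clustering placed 143 of the 157 in 1 cluster of 167 control nuclei.

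The 6 genes that chose the members were close to absent elsewhere. Adrb3 (on GRCm38 at chr8:27225776-27250616) gave 353 UMIs in the members and 33 in the other 9957 control nuclei. Ucp1 (chr8:83290352-83298452) gave 572 and 64, Plin1, the coat protein of the lipid droplet, 697 and 78, and Adipoq 342 and 62. Cidec and Cidea, which enlarge lipid droplets, gave 357 against 81 and 420 against 130. Ucp1 UMIs outside the members lay at a similar low level in every large class of nuclei, at 7.11 CPM in endothelial-like, 5.08 in cardiomyocyte-like and 4.18 in fibroblast-like nuclei, and 0.603% of the other nuclei held a Ucp1 UMI against 46.5% of the members (median depths 1012 and 1964 UMIs). Cidea was the exception, at 22.7 CPM (17.6 to 28.8) in cardiomyocyte-like nuclei against 6.97 in fibroblast-like nuclei (4.51 to 10.3).

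**Figure D1:**
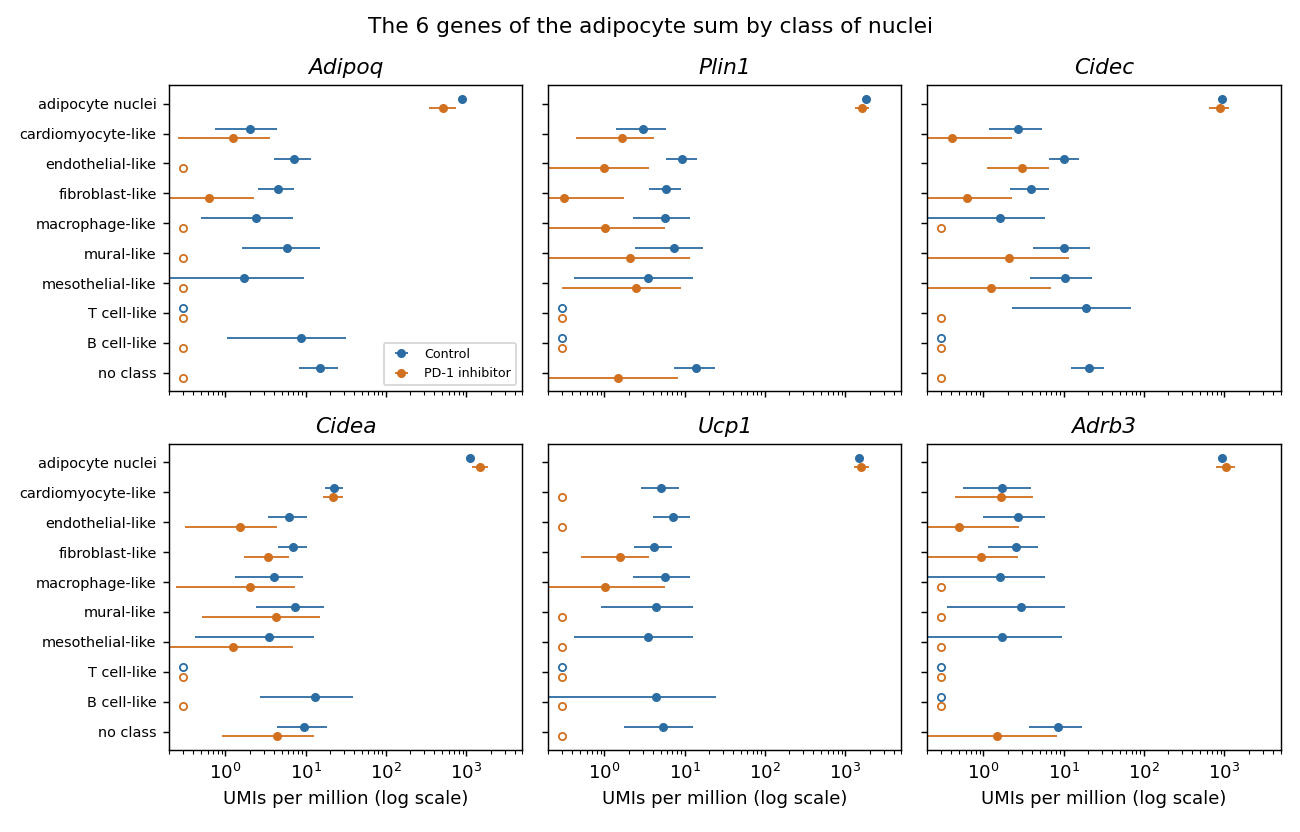
Level of each of the 6 rule genes (CPM, log scale) in the adipocyte nuclei and in 9 other sets of nuclei, for the control library (blue) and the PD-1 inhibitor library (orange). Bars are exact 95% Poisson intervals, open points at the left mark 0 UMIs, and the adipocyte nuclei stand far to the right because these genes chose them, while Cidea has a second, lower level in cardiomyocyte-like nuclei.

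The name "Ucp1 brown adipocyte" held for fewer than all of these nuclei. A Ucp1 UMI was seen in 73 of the 157 control members (46.5%, 38.5 to 54.6%) and in 10 of the 16 PD-1 inhibitor members (62.5%, 35.4 to 84.8%), and in 54 of the 157 when every nucleus was thinned to 500 UMIs. The counts were spread widely. Among control members, 84 nuclei had 0 Ucp1 UMIs, 8 had 1, 21 had 2 to 4 and 44 had 5 or more, up to 42 in a single nucleus. Nuclei without a Ucp1 UMI were shallower (median 1493.5 UMIs against 2519), but among members with at least 2000 UMIs, where those without Ucp1 had the higher median (3611 against 3395), 31 still had 0 and 47 had 1 or more. The members are therefore called adipocyte nuclei here, and the nuclei with and without a Ucp1 UMI are described apart further on.

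Among genes the rule did not use, the largest folds in the control library belonged to known fat cell genes and to less studied transcripts. Each of 13299 genes with at least 50 UMIs was compared between the members and all other control nuclei, and 452 genes (3.4% of those compared) were at least 4 times higher in the members, with at least 10 UMIs there. The 452 include the 6 genes of the adipocyte sum. The median log2 fold of all genes compared was -0.37. Pck1, which makes the glycerol backbone for triglyceride in fat, stood at 3416.4 CPM against 17.1 (1305 against 215 UMIs, 200-fold, 173 to 232). Car3, carbonic anhydrase 3, an abundant fat cell protein, stood at 4919.1 against 34.8 (141-fold, 127 to 157). Pnpla3, a lipid droplet enzyme, was 212-fold higher (160 to 290), Clstn3, whose short form sits on adipocyte lipid droplets, 192-fold (131 to 299), and Acvr1c, the activin receptor ALK7 of white and brown fat, 135-fold (101 to 184). Most of these transcripts were found in a majority of the members: Pck1 in 82.2% of them, Car3 in 74.5%, Ankef1 in 66.9% and Pnpla3 in 57.3%, against 1.39%, 2.7%, 0.422% and 0.362% of the other nuclei.

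Non-coding RNAs and less studied genes were also among the 20 largest folds, which include the rule genes Adrb3, Plin1, Ucp1, Adipoq and Cidec. Gm35552, a long intergenic RNA on chromosome 10, gave 69 UMIs in the members and 7 elsewhere. Lncbate1, a long non-coding RNA known from brown fat, gave 104 and 25 UMIs (135-fold, 88 to 222). Ctcflos lies near Pck1 on chromosome 2 and gave 287 and 51 UMIs. Gm49513 overlaps the 3′ end of Pnpla3 on the same strand of chromosome 15, so the 271 UMIs assigned to it and those of Pnpla3 cannot be told apart. Ankef1 (203-fold), Tmem45b (151-fold), A530053G22Rik (146-fold) and Lctl (169-fold) completed the group with Orm1, an acute-phase plasma protein seen in only 16 of the members, and the fatty acid activating enzyme Slc27a2.

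Of 8005 genes that would have given at least 10 UMIs in the members at an equal level, 1353 (16.9%) were at most 1/4 as high. The endothelial and fibroblast genes of the rule are among the 1353. The rule kept out nuclei whose endothelial or fibroblast sum reached the adipocyte sum. Ldb2, with 1861 UMIs in the other nuclei, and Serpinf1, with 1414, gave 0 UMIs in the members, at least 18.8-fold and 14.3-fold lower. Icam2 and Hspa12b, both endothelial genes, also gave 0 UMIs. Csf1r, the receptor for the macrophage growth factor CSF1, and Lyve1, a hyaluronan receptor of lymphatic cells and resident macrophages, gave 1 UMI each (35.3-fold lower, 9.5 to 2093.9, and 30.2-fold lower, 8.12 to 1789.8). Frmd6, Axl, Rps6ka2 and Pea15a, with 1 or 2 UMIs each, completed the 10 lowest.

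Markers of other cell types were counted in the members, where the rule itself had limited endothelial and fibroblast RNA. Cardiomyocyte markers (8 genes) stood at 3120.6 CPM in the control members against 15114.2 in all other nuclei and 55237.1 in cardiomyocyte-like nuclei, with at least 3 such UMIs in 102 members and a sum above the adipocyte sum in 20. Fibroblast markers stood at 1353.5 CPM against 30435.3 in fibroblast-like nuclei, endothelial markers at 202 against 8935.1, and macrophage markers at 209 against 12059.6. Skeletal muscle, neuronal and airway lists gave 3, 2 and 1 UMIs. The thymocyte list gave 144 UMIs, all from Cd1d1, a lipid antigen presenting molecule that adipocytes also carry (33.2-fold higher in the members), and its other 5 genes, Rag1, Rag2, Dntt, Ptcra and Cd8b1, were at 0. Without the 20 members rich in cardiomyocyte markers, 462 genes were at least 4 times higher, 441 of them among the 452.

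Thermogenic genes were mostly higher in the members. Of 35 genes of brown adipocyte identity and thermogenesis, 27 had enough UMIs to compare and 19 were at least 4 times higher in the control members (median log2 fold 3.29), where the background was 3.4% of genes. The list includes Ucp1, Adrb3 and Cidea, which chose the nuclei, and 16 of the other 24 were higher (median 2.90). Of genes outside the rule, Slc27a2 was 195-fold higher (113 to 382) and Slc36a2, an amino acid transporter of brown fat, 105-fold (820 against 258 UMIs, 91.1 to 121). The secreted growth factor Nrg4 was 75.4-fold higher (61.2 to 93.7), and Dio2, the deiodinase that activates thyroid hormone within the cell, 48.2-fold (38.5 to 60.7). Otop1 and Elovl3, brown fat genes with fewer than 50 UMIs in all, gave 27 of their 32 and 16 of their 20 UMIs in the members. The regulators, several of which heart muscle also uses, stood closer to the level of the other nuclei. Ppargc1b was 9.75-fold higher (8.45 to 11.2), Prdm16 5.68-fold (4.51 to 7.02) and Esrrg 5.19-fold (4.59 to 5.84), while Ppargc1a, the coactivator of mitochondrial biogenesis, was 2.57-fold (2.24 to 2.93) and stood at 623 CPM against 956 in cardiomyocyte-like nuclei. Zic1, a marker of interscapular brown fat, and Lhx8 gave 0 UMIs in the members, which allows up to 9.66 CPM, and they gave 15 and 2 UMIs in all other nuclei.

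Of 20 markers of white and beige fat, 10 had enough UMIs to compare and 1 (Retn) was at least 4 times higher, with a median log2 fold of -0.99. Of the 5 with enough UMIs for a lower call, 2 (Alcam and Npr3) were at most 1/4 as high. Retn, which encodes resistin, gave 125 UMIs in 36 members and 42 elsewhere (97.4-fold, 68.7 to 143). Lep, leptin, gave 6 UMIs in 5 members and 0 elsewhere. The beige markers Tmem26, Tnfrsf9 and Tbx1 gave 0, 1 and 6 UMIs in the members, and the white fat genes Hoxc8, Hoxc9 and Hoxc10 gave 0 in all control nuclei.

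Genes for making and storing fat stood far above the other nuclei as groups. In fatty acid synthesis, 12 of 17 compared genes were at least 4 times higher (median log2 fold 3.77). Acetyl-CoA carboxylase, Acaca, the committed step, stood at 4262 CPM against 94.9 (44.9-fold, 41.7 to 48.4), Fasn, fatty acid synthase, at 1845.6 against 37.6 (49.1-fold, 43.6 to 55.2), and Scd1, which adds the first double bond, at 2751.4 against 62.8 (43.8-fold, 39.9 to 48.1). The sugar-sensing activator Mlxipl (38.4-fold) and its partner in the lipogenic programme Thrsp (35.8-fold) followed. In triglyceride synthesis, 10 of 14 were higher (median 3.18), led after Pck1 by Gpd1 (104-fold, 88.6 to 123), Agpat2 (41.6-fold), Dgat2 (25-fold) and Dgat1 (21.3-fold). In lipid droplets and lipolysis, 13 of 19 were higher (median 3.09), among them the hormone-sensitive lipase Lipe (38.8-fold, 34.4 to 43.8), Plin4 (16.5-fold) and the triglyceride lipase Pnpla2 (8.52-fold, 7.03 to 10.2). The rule genes Plin1, Cidec and Cidea are on the last list, and 10 of its other 16 were higher (median 2.85).

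Genes for burning fat set the members apart less. Only 1 of 22 compared genes of mitochondrial fatty acid oxidation, the carnitine carrier Slc25a20 (7.22-fold, 5.62 to 9.11), was at least 4 times higher, although the median log2 fold was 1.14, and Acadm (3.44-fold) and Etfa (2.76-fold) came next. The count was 3 with a mitochondrial limit of 5%, 2 by the mean over nuclei and 13 at 2 times. Peroxisomal oxidation had 7 of 16 (median 1.72), led by Acaa1b (82.2-fold, 54.1 to 130), Pex11a (17.8-fold) and Ehhadh (12.8-fold). In fatty acid uptake and activation, 5 of 20 were higher: Slc27a2, Angptl4 (73.2-fold), Acsl1 (24-fold), the fatty acid binding protein Fabp4 (8.86-fold) and Slc27a1 (7.97-fold). Fabp4 was also found in endothelial-like nuclei, at 1489.3 CPM against 4340.5 in the members. Lpl, lipoprotein lipase, stood at 3542.1 in the members and 2787.2 in cardiomyocyte-like nuclei. None of the 78 compared nuclear genes of the respiratory chain passed the threshold in either direction (median -0.41), and none of the 8 compared mitochondrially encoded transcripts was higher (median -1.76), 1 of them being at most 1/4 as high. The tricarboxylic acid cycle and branched-chain amino acid list had 5 of 32 higher (median 1.28).

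**Figure D2:**
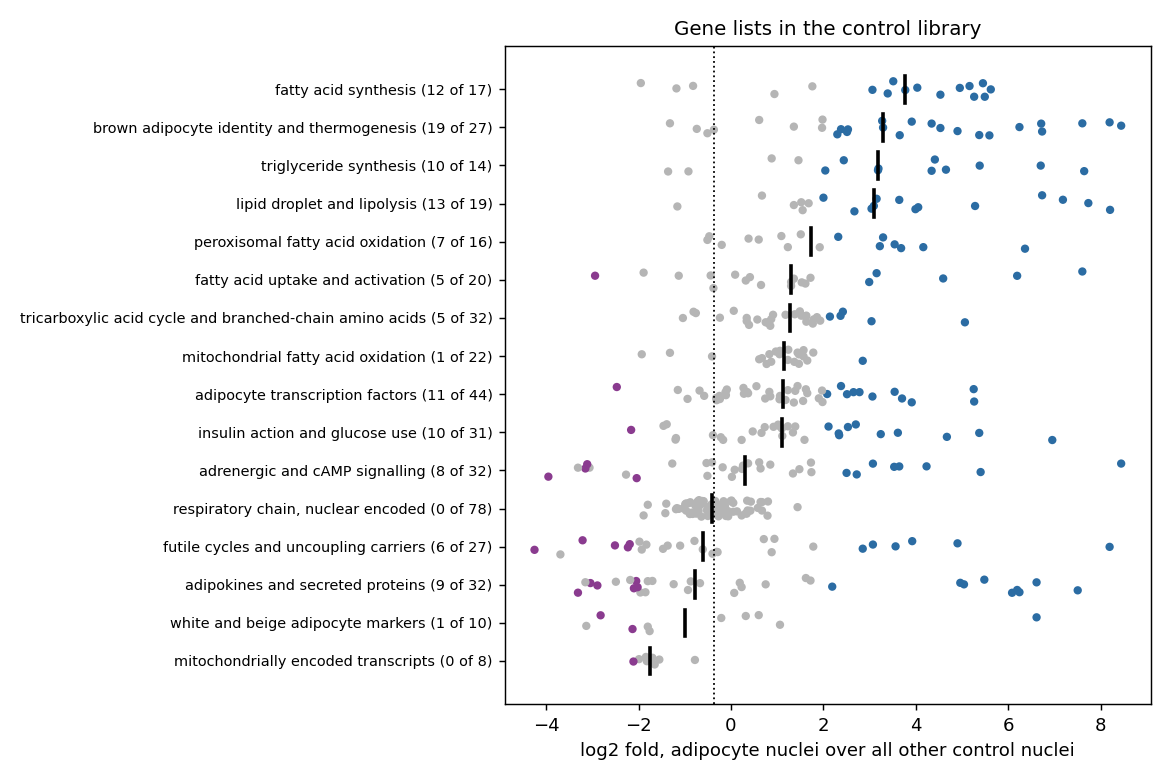
Log2 fold of each compared gene of 16 lists, control adipocyte nuclei over all other control nuclei, with the number at least 4 times higher and the number compared after each name. Blue points are at least 4 times higher, purple at most 1/4 as high, black bars are list medians and the dotted line is the median of all compared genes (-0.37), and fat synthesis, thermogenesis, triglyceride and lipid droplet lists lie furthest to the right. Rule genes such as Ucp1 and Plin1 are drawn too, and without rule genes the thermogenesis and lipid droplet medians were 2.90 and 2.85.

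Hormone signalling and transcription factors gave mixed lists. Of 32 compared genes of adrenergic and cyclic AMP signalling, 8 were higher (median 0.31), and 4 of the 25 with enough UMIs for that call were lower, where the background for lower calls was 16.9%. The rule gene Adrb3 is on this list, and 7 of its other 31 compared genes were higher (median 0.26). After Adrb3, the protein kinase A subunit Prkar2b was 42.2-fold higher (35.9 to 49.6), the adenosine receptor Adora1 18.8-fold, the phosphodiesterase Pde3b, through which insulin restrains lipolysis, 12.4-fold (11.4 to 13.6) and the adenylyl cyclase Adcy3 11.5-fold. Adrb1, the main beta receptor of heart muscle, gave 21 UMIs in the members and did not pass. In insulin action and glucose use 10 of 31 were higher (median 1.1), including the glycogen synthase Gys2 (124-fold, 76.9 to 214), Pdk4, which shuts pyruvate out of the cycle (41.3-fold, 37.2 to 46), Trarg1 (25.4-fold) and the insulin-responsive glucose transporter Slc2a4 (5.76-fold, 4.57 to 7.13). Of 44 transcription factors 11 were higher (median 1.12), led by Mlxipl, Pparg, the master regulator of fat cells (970 against 840 UMIs, 38.1-fold, 34.7 to 41.8), Ppara (15-fold), Cebpa (13-fold) and Stat5a (11.7-fold).

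Of 32 compared secreted proteins, 9 were higher (median -0.77), and 6 of the 19 with enough UMIs for that call were lower, against 16.9% of all genes. Adipoq, a rule gene, is among the 32, and 8 of the other 31 were higher (median -0.87). Cfd, the complement protease adipsin, gave 432 UMIs in 84 members (44.5-fold, 38.5 to 51.6), Hp, haptoglobin, was 67.5-fold higher, and Vegfa, the angiogenic factor, 4.58-fold (4.23 to 4.94). Vegfa stood at 1926.8 CPM in the members and 1418 in cardiomyocyte-like nuclei. Fgf21 and Bmp8b, factors released by active brown fat, gave 0 UMIs in the members. Among carriers and futile cycles 6 of 27 were higher (median -0.61) and 5 of 18 lower, against 16.9% of all genes. With the rule gene Ucp1 left out, 5 of 26 were higher (median -0.70). Ucp3 was 29.8-fold higher (22.2 to 39.8), Slc25a42, a coenzyme A carrier, 11.8-fold and Gpd2 8.38-fold, while Ucp2 and the creatine kinase Ckb, of the creatine futile cycle, each gave 1 UMI in the members.

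The members were also set against cardiomyocyte-like nuclei alone, the other cells of the heart with a high fuel demand. Against these, the members were higher in genes of fat synthesis and storage but not in those of mitochondrial fatty acid oxidation. Of 8929 genes with at least 50 UMIs in both together, 474 (5.31%) were at least 4 times higher in the members (median log2 fold 0.10 over all genes compared). Fatty acid synthesis had 13 of 16 genes higher (median 4.09), lipid droplets 13 of 18 (3.05) and triglyceride synthesis 8 of 14 (2.41). Plin1, Cidec and Cidea, which chose the nuclei, are on the lipid droplet list, and this count was not taken without them. The 474 also hold the 6 genes of the adipocyte sum. Mitochondrial fatty acid oxidation had 1 of 22 higher, with a median of 0.06. Acadm stood at 628 CPM in the members and 451 in cardiomyocyte-like nuclei, Hadha at 450 and 464, and Acadl at 516 and 599. Peroxisomal oxidation had 7 of 16 higher (median 1.14). Lower calls covered 9.75% of the 6829 genes with enough UMIs for them. They covered 21 of 76 respiratory chain genes, of which 0 of 77 were higher (median -1.74), and 7 of 8 mitochondrially encoded transcripts (median -2.85). Mitochondrially encoded UMIs were counted in nuclei, and whether they reflect the mitochondria of the cells was not tested. With a mitochondrial limit of 5%, 416 genes were at least 4 times higher in the members than in cardiomyocyte-like nuclei, in place of 474.

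The members were then divided by Ucp1. Control members with a Ucp1 UMI (73 nuclei, 214126 UMIs) were compared with those without (84 nuclei, 167855 UMIs) over 4328 genes with at least 20 UMIs in both together. With Ucp1, 75 genes (1.73%) were at least 4 times higher and 96 (2.22%) at most 1/4 as high. The 75 include Ucp1 itself, on which the nuclei were divided, and the rule gene Cidea, which leaves 73 outside the rule. The nuclei were divided by 1 measured gene in 1 library, so these values describe the division and test nothing, and the genes named here were chosen after their values were seen. Nuclei without Ucp1 could enter only through the other 5 genes of the sum, so the levels of those genes by side are set in part by the rule: Plin1 stood at 1756 CPM with Ucp1 and 1912.4 without (ratio 0.918, 0.789 to 1.07) and Adrb3 at 995 and 834 (1.19, 0.959 to 1.49). Among genes outside the rule, Slc36a2 at 2246.3 and 2019.6 (1.11, 0.966 to 1.28) and Vegfa at 2040.9 and 1781.3 (1.15, 0.987 to 1.33) had ratios whose intervals held 1.

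Nuclei with Ucp1 carried more RNA of the thermogenic list. Of 25 thermogenic genes compared besides Ucp1, 11 (the rule gene Cidea among them) were at least 4 times higher with Ucp1 and 0 at most 1/4 as high (median log2 fold 1.75, against 0.08 over all genes compared). Slc27a2 gave 85 UMIs in 34 of the nuclei with Ucp1 and 0 in the 84 without, at least 22.2-fold higher. Pank1, which starts coenzyme A synthesis, stood at 841 CPM against 77.4 (10.5-fold, 6.19 to 20.8), Ppara at 2045.5 against 316 (6.43-fold, 4.86 to 8.79), Dio2 at 785 against 149 (5.18-fold, 3.45 to 8.37), Ppargc1b at 1046.1 against 220 (4.69-fold, 3.34 to 6.92), Pdk4 at 3203.7 against 685 (4.66-fold, 3.83 to 5.75) and the glycerol kinase Gk at 1653.2 against 369 (4.45-fold, 3.41 to 5.96). Esrrg (3.51-fold, 2.64 to 4.8), Prdm16 (3.37-fold, 2.04 to 6.1), Ppargc1a (3.16-fold, 2.3 to 4.48) and Ebf2 (2.52-fold, 1.87 to 3.5) lay under the threshold on the same side. Oxidation genes were mixed. Mitochondrial fatty acid oxidation had 0 of 19 genes past the threshold and summed to 6122.6 CPM against 3336.2 (1.84-fold, 1.66 to 2.03). Peroxisomal oxidation had 0 of 13 and a summed ratio of 0.838 (0.738 to 0.952), and mitochondrially encoded transcripts had 0 of 7 and a summed ratio of 0.529 (0.482 to 0.581). The respiratory chain, with 1 gene called on each side of 69 compared, had a summed ratio of 1.14 (1.07 to 1.21). The tricarboxylic acid cycle list had 1 of 29 genes at most 1/4 as high and a summed ratio of 1.19 (1.11 to 1.28). Cardiomyocyte markers also differed between the sides, at 5332 CPM without Ucp1 and 1387 with it. The sums were not taken again without the members rich in those markers. Slc4a4, a sodium bicarbonate transporter (6.35-fold, 4.83 to 8.63), Lgr6, a receptor for R-spondins (65 against 2 UMIs), and the orphan nuclear receptor Nr4a2 (44 against 4 UMIs) were outside the lists.

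On the other side stood a few adipokine genes and, by smaller ratios, part of fat synthesis. Of 16 adipokine and secreted protein genes compared, 2 (Retn and Cfd) were at most 1/4 as high with Ucp1 and 1 (Kng2) at least 4 times higher, with a median log2 fold of -0.09. Retn stood at 661 CPM without Ucp1 and 65.4 with it (9.81-fold, 5.78 to 19.1), and was seen in 33 of the 84 nuclei without and in 3 of the 73 with Ucp1. Cfd stood at 2246 against 257 (8.68-fold, 6.58 to 11.8) and was seen in 61 and 23 nuclei. Slc7a10, a neutral amino acid transporter known as a white fat marker, gave 45 UMIs against 5, and Trhde, an enzyme that degrades thyrotropin-releasing hormone, gave 47 UMIs in 23 nuclei against 0, at least 20-fold. Nrip1, a corepressor that holds back the oxidative programme, was 7.37-fold higher without Ucp1 (4.35 to 14.1), the fatty acid transporter Slc27a1 6.58-fold (4.97 to 8.99), Trf, transferrin, 17.1-fold (8.53 to 46.5), and Pank3 8.15-fold (4.46 to 17.7), the opposite side from Pank1. Of 14 fatty acid synthesis genes compared, 1 (the citrate carrier Slc25a1) was at most 1/4 as high with Ucp1 and 0 at least 4 times higher, and the summed ratio with over without Ucp1 was 0.63 (0.599 to 0.662). Fasn stood at 2484.3 without Ucp1 against 1345 with it (1.85-fold, 1.59 to 2.15) and Acaca at 5641.8 against 3180.4 (1.77-fold, 1.61 to 1.96), while Elovl6, which lengthens fatty acids, and Acacb, the carboxylase that restrains fatty acid oxidation, were higher with Ucp1 (ratios 1.73, 1.3 to 2.34, and 1.53, 1.23 to 1.92). Triglyceride synthesis, with 1 gene called on each side of 12 compared, summed to 1.34-fold higher with Ucp1 (1.25 to 1.42). The rule genes Cidec and Adipoq were 3.22-fold (2.56 to 4.11) and 1.69-fold (1.36 to 2.11) higher without Ucp1, levels that the rule sets in part. Retn was seen in 39.3% and Cfd in 72.6% of nuclei without Ucp1 against 4.11% and 31.5% of those with it, and after thinning to 500 UMIs in 22.6% and 56% against 1.37% and 12.3%.

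**Figure D3:**
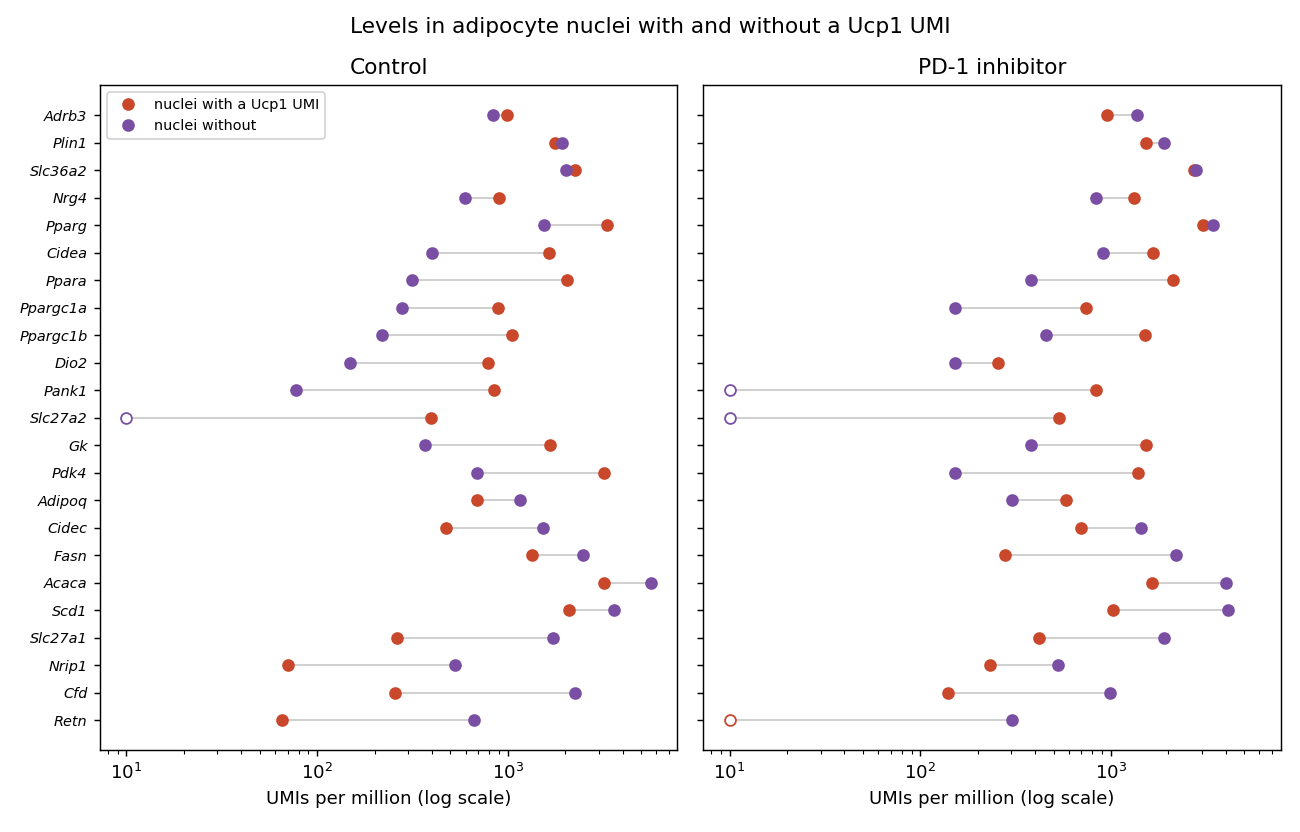
Level of 23 genes (CPM, log scale) in adipocyte nuclei with a Ucp1 UMI (red) and without (purple), in the control library (73 and 84 nuclei) and the PD-1 inhibitor library (10 and 6 nuclei), with open points at the left edge for 0 UMIs. In both libraries Slc27a2, Pank1, Ppara and Pdk4 are higher with Ucp1 and Cfd, Retn and Slc27a1 higher without. Adipoq and Adrb3 are among those drawn that lie on opposite sides in the libraries.

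Cardiomyocyte RNA moved with the division. Cardiomyocyte markers stood at 5332 CPM in the control members without Ucp1 and 1387 in those with it, and 18 of the 20 members with more cardiomyocyte than adipocyte marker UMIs had no Ucp1 UMI. Without those 20 (71 nuclei with and 66 without Ucp1), 94 genes were at least 4 times higher with Ucp1, 64 of them among the 75, and 75 at most 1/4 as high, 62 of them among the 96. Retn was then 10.3-fold and Cfd 9.62-fold higher without Ucp1, and cardiomyocyte-like nuclei held Retn at 3.39 and Cfd at 27.1 CPM. Fhl2, a cardiomyocyte gene at 4456.3 CPM in those nuclei, was 7.98-fold higher without Ucp1 over all members and 1.34-fold without the 20. In the members whose cardiomyocyte marker sum was below 3 (24 with and 31 without Ucp1), 27 genes were at least 4 times higher and 21 at most 1/4 as high, and the ratio with over without Ucp1 was 0.277 for Retn, 0.175 for Cfd and 2.05 for Dio2, where all members gave 0.102, 0.115 and 5.18. Among members with at least 2000 UMIs, Dio2 was 21.1-fold higher with Ucp1.

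The PD-1 inhibitor library, which had no part in choosing those genes, gave the same sides for most of them. Of the genes called in the control library other than those of the rule, 25 of the 73 higher with Ucp1 had at least 10 UMIs in the 16 PD-1 inhibitor members, and 21 of the 25 were higher in the 10 nuclei with Ucp1. Of the 96 lower with Ucp1, 15 had as many UMIs and 14 of them were lower. Cardiomyocyte markers lay the same way in these members, at 5075.8 CPM without Ucp1 and 1694.6 with it. Leaving out genes higher in cardiomyocyte-like nuclei than in the members, the counts were 21 of 25 and 9 of 10. Over all 1283 genes compared in control with at least 10 UMIs there, 709 (55.3%) were higher in the nuclei with Ucp1. Pank1 gave 36 UMIs with Ucp1 and 0 without, Slc27a2 23 and 0, Slc4a4 134 and 1, and Esrrg 60 and 0. On the other side, Retn gave 0 with Ucp1 and 4 without, Slc7a10 0 and 5, and Acly, which supplies acetyl-CoA for fat synthesis, 1 and 27. Trf went the other way, with 11 and 1 UMIs, and so did Adipoq, at 580 and 303 CPM. The 6 nuclei without Ucp1 held 13200 UMIs in all.

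Single nuclei tended to one side or the other. For each side the 15 genes with the largest ratio in the control library (at least 30 UMIs in the members, rule genes left out) were summed in every nucleus. In the PD-1 inhibitor library, all 10 nuclei with Ucp1 held more UMIs of the genes higher with Ucp1, and 4 of the 6 without held more of the other set, 1 held fewer and 1 was tied. In the control library, where the sets were chosen, the counts were 66 of 73 and 66 of 84, and at least 3 UMIs of both sets were found in 15 and 18 nuclei.

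**Figure D4:**
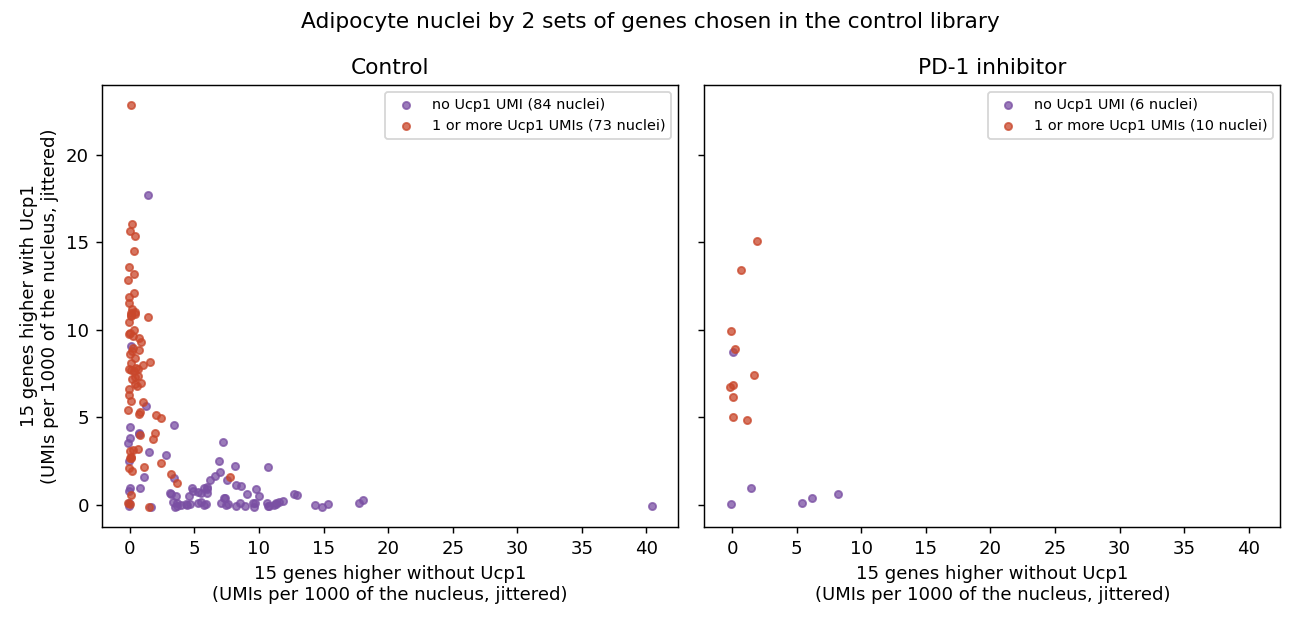
Each point is 1 adipocyte nucleus, placed by its UMIs per 1000 from 15 genes higher without Ucp1 (horizontal) and 15 genes higher with Ucp1 (vertical), in red if it had a Ucp1 UMI. The genes were chosen in the control library, so its panel shows the choice, and in the PD-1 inhibitor panel all 10 red nuclei lie above 4 per 1000 on the vertical axis.

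The promoter windows of 3 genes that mark the sides are shown because Ucp1 and Slc27a2 were seen together and Retn apart from them. Each runs from 250 bases before to 50 bases after the RefSeq start of the gene (GRCm38.p6, all on the plus strand), written 5′ to 3′, with capitals for 2 short motifs on either strand: TGACG, the half-site of the cyclic AMP response element, and AGGTCA, the half-site that nuclear receptors such as PPARs and thyroid hormone receptors bind.
Ucp1, chr8:83290098-83290397: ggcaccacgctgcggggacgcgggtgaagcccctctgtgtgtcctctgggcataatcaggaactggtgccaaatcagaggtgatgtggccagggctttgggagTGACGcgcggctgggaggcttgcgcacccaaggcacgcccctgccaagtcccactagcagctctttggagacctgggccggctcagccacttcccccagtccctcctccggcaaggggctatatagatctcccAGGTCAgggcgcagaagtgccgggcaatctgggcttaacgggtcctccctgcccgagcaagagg
Slc27a2, chr2:126552774-126553073: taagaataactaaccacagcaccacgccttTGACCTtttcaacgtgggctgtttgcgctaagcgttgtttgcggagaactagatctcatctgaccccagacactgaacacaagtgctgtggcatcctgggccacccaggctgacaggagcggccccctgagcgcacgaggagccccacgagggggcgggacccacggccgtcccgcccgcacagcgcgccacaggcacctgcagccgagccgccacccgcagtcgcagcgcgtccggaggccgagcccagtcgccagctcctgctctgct
Retn, chr8:3655520-3655819: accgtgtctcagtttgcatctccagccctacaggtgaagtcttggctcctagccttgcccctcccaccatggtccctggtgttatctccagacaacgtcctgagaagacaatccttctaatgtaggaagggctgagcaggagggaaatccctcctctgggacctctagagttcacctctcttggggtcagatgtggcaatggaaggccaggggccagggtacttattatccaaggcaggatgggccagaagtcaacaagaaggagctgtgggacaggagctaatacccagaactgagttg
The Ucp1 window holds TGACG 147 bases and AGGTCA 14 bases before the start, the Slc27a2 window holds AGGTCA on the opposite strand 220 bases before the start, and the Retn window holds neither. AGGTCA was present in 27.9% of the 68 genes higher with Ucp1 that had a window, in 11.8% of the 76 lower with Ucp1 and in 18.1% of all 27025 genes, and TGACG in 27.9%, 22.4% and 23%. The 68 include Ucp1 itself, which made the division and whose window holds both motifs. A match is a run of letters and was not tested as a binding site.

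Adipocyte nuclei were scarce in the PD-1 inhibitor library, at 0.201% of 7952 nuclei (0.115 to 0.327%) against 1.55% in the control library, a ratio of 0.13 (0.0723 to 0.217). The ratio was 0.155 (0.0797 to 0.276) when nuclei were thinned to 500 UMIs before the rule and 0.122 when members were taken by cluster. Other classes of nuclei differed less: cardiomyocyte-like nuclei had a ratio of 1.04 (0.965 to 1.12), endothelial-like 1.02 and fibroblast-like 1.09, while B cell-like nuclei had 0.531 (0.401 to 0.698) and glial-like nuclei, 29 and 9 in all, 0.395 (0.164 to 0.856). Adipocyte RNA outside the members was lower as well in the PD-1 inhibitor library, with the 6 rule genes summing to 11 CPM (9.15 to 13.2) against 35.5 (32.3 to 39) and Ucp1 at 0.557 against 5.08. With 1 library in each group, treatment, tissue sampling and library preparation cannot be told apart.

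**Figure D5:**
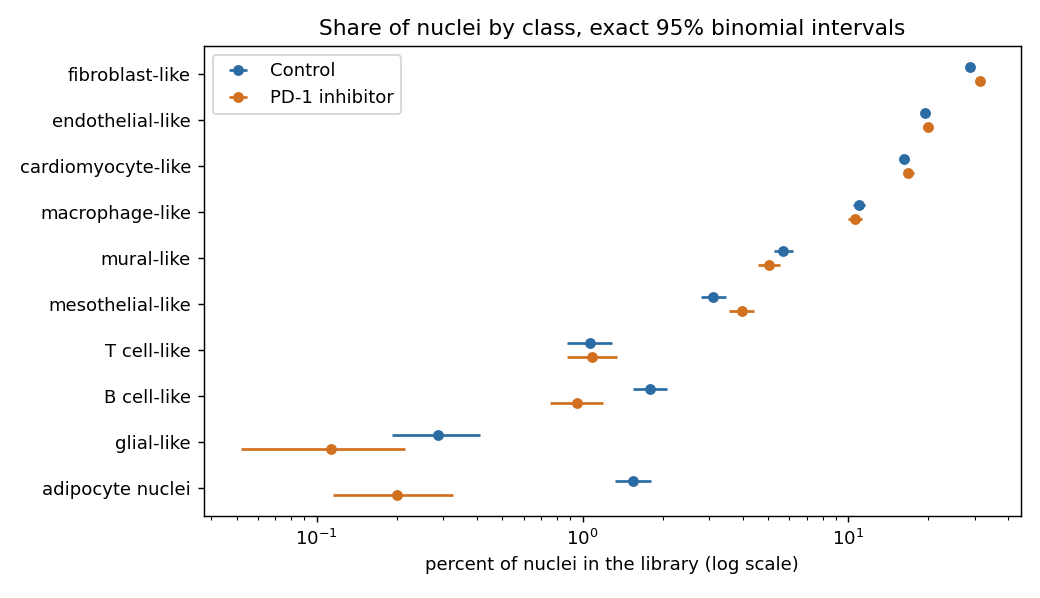
Share of nuclei in each class (percent, log scale) in the control library (blue, 10114 nuclei) and the PD-1 inhibitor library (orange, 7952 nuclei), with exact 95% binomial intervals. The adipocyte nuclei are at 1.55% and 0.201%, the widest gap among the 10 classes drawn.

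In the few adipocyte nuclei of the PD-1 inhibitor library, fat synthesis RNA was lower than in control among nuclei with Ucp1. Several other lists differed too, in both directions. The 16 members held 56278 UMIs with a median of 2993.5. Those with Ucp1 held 43078 of them, with 8527, 8188 and 7448 in the deepest nuclei. The 6 rule genes, whose level in members the shared threshold conditions, summed to 7125.3 CPM (6444.9 to 7858.1) against 7175.7 (6909.6 to 7449.5), and to 8875 against 7222.9 with nuclei thinned to 500 UMIs. The share of members with Ucp1 differed (62.5% and 46.5%), so the lists were read on each side apart and without rule genes. The thermogenic list summed to 18060.3 CPM with Ucp1 (16813.3 to 19375.2) against 18881.4 in control (18303.8 to 19472.6), and without Ucp1 to 8333.3 (6849 to 10043.9) against 6976.3 (6582.4 to 7387.6). Both pairs of intervals overlapped. The fatty acid synthesis list summed to 6337.3 with Ucp1 (5607.8 to 7135.4) against 13071.7 (12591.9 to 13565.2), and without Ucp1 to 20378.8 (18016 to 22965.3) against 20744.1 (20060.7 to 21444.8). With Ucp1, Fasn stood at 279 CPM against 1345 in control and Acaca at 1648.2 against 3180.4, and without Ucp1 Fasn stood at 2197 against 2484.3 and Acaca at 4015.2 against 5641.8. Other lists also had intervals apart from control. With Ucp1, adrenergic signalling (11653.3 against 8583.7 CPM), fatty acid uptake, mitochondrial fatty acid oxidation, futile cycles and mitochondrially encoded transcripts were higher. Insulin action (8426.6 against 10806.7) and lipid droplets (5687.4 against 6972.5) were lower. Without Ucp1, mitochondrial oxidation, insulin action, transcription factors, the respiratory chain and mitochondrially encoded transcripts were higher. These values rest on 10 and 6 nuclei of 1 library and have no replicate check.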

How the data were processed

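The authors deposited, for each of the 2 libraries, a matrix of UMI counts per gene and nucleus from the GEXSCOPE single-nucleus kit. The builds GRCm38 and mm10 are named in the submitters' processing notes, while the aligner, the counter and whether strand was used are not given in the sources used here. Every deposited nucleus had at least 500 UMIs, and the libraries summed to 13177525 (Control) and 10875248 (PD-1 inhibitor) UMIs. All other values were computed from these counts.

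Nuclei above 20% mitochondrial UMIs (83 and 15) were left out. Members were found by the rule stated with the results, and each other nucleus took the class with the largest sum over 8 marker genes if it reached 3 (10 for cardiomyocytes). UMIs were summed per class, and a gene was called at 4 times higher or lower, with 0.5 UMI added to both sums. The members and gene lists were chosen with earlier results of these data known. Named genes were the rule genes, the 20 largest folds (a UMI in at least 10% of members), the 10 smallest, up to 5 per list, and textbook fat markers. Genes of the Ucp1 division were named after their values were seen. Doublets were called with Scrublet and clusters with Leiden (2000 variable genes, 30 components, 15 neighbours, resolution 1) in scanpy 1.11.5, and other steps used numpy 2.4.6 and scipy 1.17.1. The calls were tested on simulated data. The intervals cover counting error only. Folds given as "at least" for a gene with 0 UMIs on 1 side set that side at 3 UMIs.

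Alternatives were other adipocyte sums and mitochondrial limits, doublet removal, membership by cluster, thinning, other scalings, folds and filters. Values shown in figures were drawn with matplotlib 3.10.9. Gene positions came from GENCODE on GRCm38 and promoter windows from RefSeq.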

Additional observations from a re-analysis of the deposited data

How the results depend on the processing

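The share of adipocyte nuclei in the control library was 1.26% with an adipocyte sum of at least 5 and 1.06% with nuclei thinned to 500 UMIs before the rule, while its ratio between libraries stayed between 0.122 and 0.155 under all alternatives. The threshold of the fold moved the counts most. At 2 times, 1244 genes were higher and 2455 lower than in all other nuclei, 1583 were higher than in cardiomyocyte-like nuclei, and 167 distinct genes of the 16 lists were higher, against 100 at 4 times. At 8 times, the first 3 counts were 210, 554 and 214. Under the other alternatives, these counts stayed within 1.5 times of their main values. Of 192 counts for single lists, 15 left that range, 12 of them through the fold. The other 3 were mitochondrial fatty acid oxidation, at 3 genes with a mitochondrial limit of 5% and 2 by the mean over nuclei against 1, and the tricarboxylic acid cycle list, at 9 with that limit against 5. Thinned to 500 UMIs, the 6 rule genes summed to 8875 CPM in the PD-1 inhibitor members and 7222.9 in the control members, where each nucleus then weighs the same.

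The alternatives of the Ucp1 division, those without members or genes rich in cardiomyocyte RNA, and the lists without rule genes were chosen after seeing the data. Genes at least 4 times higher or at most 1/4 as high with Ucp1 numbered 27 and 21 in members with a cardiomyocyte marker sum below 3, where 1144 genes had enough UMIs to compare in place of 4328. In each alternative the 15 genes listed for each side kept their side. Each alternative is a part of the same nuclei that chose these genes, so this outcome was largely set in advance and tests nothing. No paired analysis was possible because each group was 1 library. Depth limits the PD-1 inhibitor members most, since their 16 nuclei held 56278 UMIs, and a gene absent from them may lie at up to 65.5 CPM.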
